A study of Mus musculus with 6 samples.

Results

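The replication-dependent histone genes lie in gene clusters and encode the core histones H2A, H2B, H3 and H4 and the linker histone H1. They were taken here as the genes whose platform annotation gave a row of the array data a single symbol of the clustered H1, H2A, H2B, H3 or H4 series, pseudogenes left out. Where a gene had several such rows, the row with the highest mean over the 6 arrays stood for it. This gave 26 genes of the 22180 genes with a row of 1 symbol: 5 of H1, 6 of H2A, 8 of H2B, 7 of H4 and 0 of H3. No H3 gene had a row of its own. The H3 genes appeared on rows that name several genes at once, which are described separately.

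RNA came from myeloid cells of mouse fetal liver cultured with GM-CSF at 1 ng/ml, a cytokine that supports granulocytes and macrophages. The 3 uninduced samples (A, B, C) had no doxycycline, and the 3 induced samples (A, B, C) had 1000 ng/ml doxycycline for 72 hours, which the labels equate with expression of PU.1, the myeloid transcription factor encoded by Spi1. Each sample was hybridised to 1 Mouse Gene 2.0 ST array, and expression is given as the deposited log2 value. Spi1 itself was at 8.80, 8.65 and 8.84 in the uninduced samples A, B, C and at 9.13, 9.04 and 9.05 in the induced ones. The groups did not overlap, but the difference of 0.31, or 1.24-fold (SE 0.12), was not called (limma adjusted p = 0.152), and whether its probes see the engineered transcript is not known here. Neither the engineered construct, nor the genotype, nor whether the cells are 1 clone is given in the sources used here. No sample had the drug without induction, so effects of doxycycline and of PU.1 cannot be told apart. The labels do not state that samples of a group were separate cultures, and the p-values then measure only the spread between these samples.

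A histone mRNA of this kind ends in a stem-loop in place of a poly(A) tail and is made mainly while DNA is copied in S phase. Its transcription is switched on by NPAT at nuclear bodies that hold the gene clusters, and its 3' end is cut with the help of the stem-loop binding protein SLBP and the U7 snRNP. The new histones package replicated DNA, so the level of these mRNAs is widely used as a readout of S phase. Many, but not all, other histone variants are made throughout the cell cycle from ordinary polyadenylated mRNAs. How the RNA was primed for labelling is not given in the sources used here, and priming decides how well mRNAs without a poly(A) tail are seen.

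Of the 26 genes, 21 lie on chromosome 13 between 21722044 and 23934913 and 5 on chromosome 3 between 96219885 and 96270192 (RefSeq, GRCm38.p6). Promoter windows of RefSeq, from 250 bases before to 50 after the start, were found for 24 of them. The windows differed by histone class in the short motifs that were searched on both strands. The TATA box letters TATAAA were present in 16 of 24 windows, against 13.6% of 32851 windows in the table. The letters CCAAT, bound by NF-Y, were in the windows of 5 of 5 H1, 6 of 6 H2A and 7 of 7 H2B genes but of 1 of 6 H4 genes, against 37.4% of all windows. The H1 box AAACACA was in 4 of 5 H1 windows (7.18% of all windows). The octamer ATTTGCAT, the element of H2B promoters bound by OCT1, was in 5 of 7 H2B and 3 of 6 H2A windows (1.74%). The letters GGTCCG, added after the windows had been seen, are part of the H4 element bound by HINFP, and were in 5 of 6 H4 windows (8.25%). Of the E2F-type letters, TTTCCCGC was in 1 of 24 windows (1.07%) and TTTGGCGC in 0 (0.514%). The PU.1-type letters GAGGAAGT were in 0 of 24 (3.20%). No searched motif contains another, and a match describes the sequence only.

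The following sequences show searched motifs, in capitals, for 1 gene each of H1, H2B and H4 that is above background on all arrays. A sequence of H4c1, the H4 gene with the largest measured rise, comes last and holds no GGTCCG. Each is the 120 bases before the start, 5' to 3' on the strand of the gene (RefSeq, GRCm38.p6), and capitals mark every letter covered by a searched motif on either strand. They lie at chr13:21780626-21780745 (minus strand, H1f5), chr13:23746614-23746733 (plus, H2bc3), chr13:21750554-21750673 (minus, H4c12) and chr13:23761250-23761369 (minus, H4c1).
H1f5: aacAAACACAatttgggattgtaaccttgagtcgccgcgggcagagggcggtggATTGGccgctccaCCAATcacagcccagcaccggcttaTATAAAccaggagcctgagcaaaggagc
H2bc3: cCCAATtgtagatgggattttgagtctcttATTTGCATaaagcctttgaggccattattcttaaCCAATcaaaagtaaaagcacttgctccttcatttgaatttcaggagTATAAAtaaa
H4c12: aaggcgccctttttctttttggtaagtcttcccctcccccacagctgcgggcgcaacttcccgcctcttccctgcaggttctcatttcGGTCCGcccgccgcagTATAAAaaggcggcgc
H4c1: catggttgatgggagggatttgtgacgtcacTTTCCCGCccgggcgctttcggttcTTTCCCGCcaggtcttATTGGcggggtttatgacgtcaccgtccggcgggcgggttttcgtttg

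H2ac12 and H2bc12 are transcribed away from each other from 1 shared stretch of 177 bases at chr13:22035644-22035820, shown on the plus strand, from the start of H2ac12 to that of H2bc12. H2ac1 and H2bc1, a pair used in the testis, share 280 bases in the same way, so the windows of these 4 genes are not independent.
H2ac12 to H2bc12: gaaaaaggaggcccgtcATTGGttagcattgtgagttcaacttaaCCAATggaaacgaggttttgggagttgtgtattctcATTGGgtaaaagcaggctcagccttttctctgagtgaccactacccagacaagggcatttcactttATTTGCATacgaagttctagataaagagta

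The clustered histone genes split evenly by direction after induction, and none passed the test. Of the 26 genes, 13 had a log2 difference above 0 and 13 below (induced minus uninduced), with a median of 0.00 and a range from -0.64 for H1f1 to 0.51 for H4c1. By limma, at an adjusted p under 0.05 over all 22180 genes, 0 of the 26 were higher and 0 lower, where 0.374% of all genes were called higher and 1.05% lower. The smallest adjusted p was 0.123, for H4c1. At an unadjusted p under 0.05, 2 were higher (H4c1 and H2ac1; 11.4% of all genes) and 1 lower (H1f1; 16.9%). The 3 values of one group lay wholly above the other in 4 genes with the induced samples higher (16.0% of all genes) and in 1 with them lower (15.4%). The median over all genes tested was 0.06.

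Background was read from 1394 olfactory and vomeronasal receptor genes, which such cells are not known to use. A value under their 95th percentile on the same array, 7.05 to 7.99, counts as in the range of background. In the order A, B, C this bound was 7.37, 7.05 and 7.34 on the uninduced arrays and 7.39, 7.99 and 7.85 on the induced ones. The same value can thus be above background on an uninduced array and not on induced B or C. By this measure 7 histone genes were above background on all 6 arrays: H1f2, H1f5, H2ac10, H2ac21, H2bc3, H2bc12 and H4c12. A further 6 were above it on some arrays, and 13 on none. The 7 had a median change of 0.16, with 4 above 0 and 3 below. For the 13 in the range of background no fold is given.

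**Figure D1:**
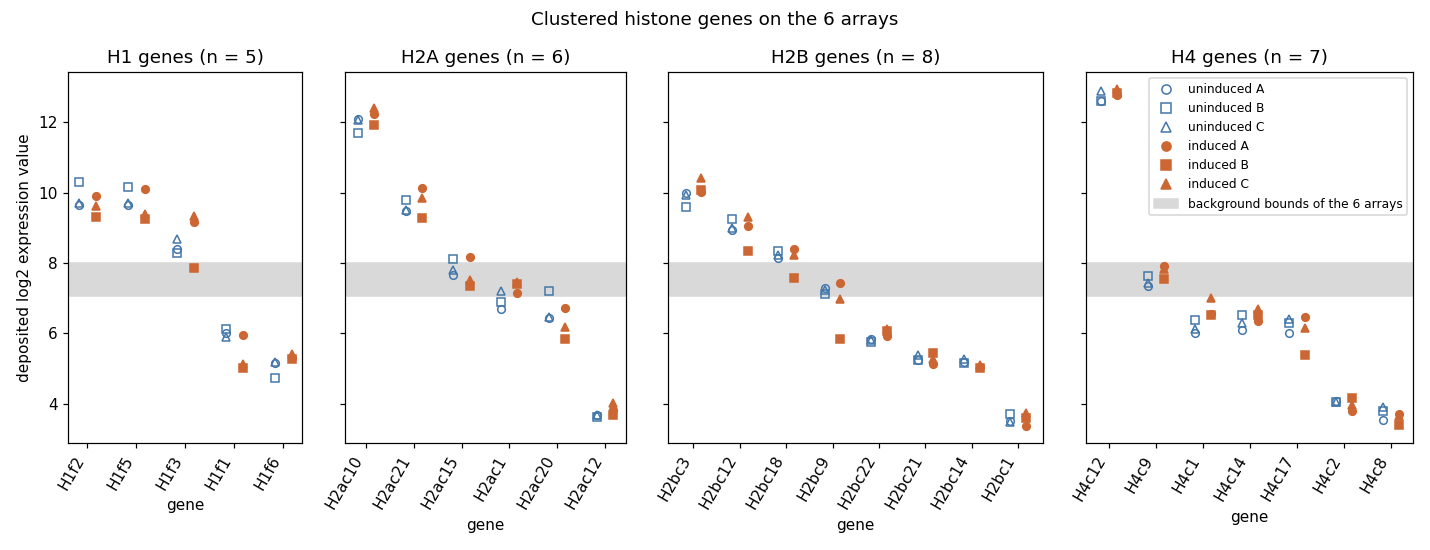
Deposited log2 expression values (y axis) of the 26 histone genes (x axis, by class, ordered by mean), with 1 point per array: open blue for uninduced, filled orange for induced, shape for the letter A, B or C. The grey band spans the background bounds of the 6 arrays, 7.05 to 7.99; H2ac10 and H4c12 lie far above it, and the square of induced B is the lowest induced point in 18 of 26 genes.

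Linker histone H1 genes, whose proteins bind the DNA between nucleosomes, had a median change of -0.25 with 2 of 5 above 0 as deposited, and of 0.11 with 4 of 5 above 0 after cyclic loess. H1f2 (chromosome 13, 23738807 to 23739531) was at 9.66, 10.30 and 9.72 without induction and at 9.91, 9.32 and 9.61 with it, in the order A, B, C that is kept throughout. The groups overlapped, with uninduced B highest and induced B lowest, and the difference was -0.28 (SE 0.20, limma adjusted p = 0.336; 95% interval -0.72 to 0.17). H1f5 (21779832 to 21780625) followed the same order of extremes, at 9.64, 10.16 and 9.72 against 10.12, 9.24 and 9.39, a difference of -0.25 (SE 0.23, adjusted p = 0.425). After cyclic loess, which evens out level-dependent shifts between arrays, H1f2 was at 0.09 and H1f5 at 0.11, on the other side of 0.

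H1f3 (23555032 to 23555807) was at 8.39, 8.30 and 8.68 without induction and at 9.17, 7.87 and 9.35 with it. Induced A and C lay above every uninduced value and induced B below every one, so the difference of 0.34 (SE 0.32, adjusted p = 0.444) has an interval from -0.37 to 1.05. H1f1, a linker histone gene in the range of background on all 6 arrays, was at 6.0, 6.13 and 5.90 and then at 5.95, 5.01 and 5.14, a measured difference of -0.64 (SE 0.22, adjusted p = 0.128). Its low values are those of induced B and C, while induced A lay between the uninduced samples. H1f6, the testis-specific H1t, stayed in the range of background too, at a mean of 5.02 ± 0.26 and 5.33 ± 0.07 (SD, n = 3 per group).

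H2A genes, which with H2B form the outer dimers of the nucleosome, had a median change of 0.17, with 4 of 6 above 0. H2ac10 (23533875 to 23534378) was at 12.10, 11.70 and 12.06 without induction and at 12.23, 11.92 and 12.40 with it. Its groups overlapped at induced B, and the difference was 0.23 (SE 0.17, adjusted p = 0.338; interval -0.14 to 0.59). H2ac21 (chromosome 3, 96219885 to 96220354) was at 9.49, 9.78 and 9.51 and then at 10.14, 9.28 and 9.85. Induced A and C were the highest of the 6 arrays and induced B the lowest, for a difference of 0.16 (SE 0.20, adjusted p = 0.576), which was 0.40 without induced B and -0.03 without induced A.

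H2ac15 was above background on all 3 uninduced arrays and on induced A only. The background bound was higher on induced B (7.99) and C (7.85) than on any other array. H2ac15 was at 7.65, 8.12 and 7.80 against 8.16, 7.35 and 7.52, a difference of -0.18 (SE 0.21, limma adjusted p = 0.534). H2ac20, on chromosome 3, was at 6.45, 7.21 and 6.47 and then at 6.73, 5.85 and 6.17. Uninduced B was highest and alone above background, on the array with the lowest bound, 7.05. The difference was the largest measured fall of the class, -0.46 (SE 0.25, limma adjusted p = 0.234). A row naming 3 H2A genes, H2ac20 among them, was above background on all 6 arrays and went the other way, at 0.14 (SE 0.12). H2ac1, the testis H2A gene, was at 6.68, 6.88 and 7.21 and then at 7.15, 7.40 and 7.46, all in the range of background. The groups overlapped through uninduced C, and the measured rise of 0.41 (SE 0.16, adjusted p = 0.148) was the largest of the class. H2ac12 was at a mean of 3.66 ± 0.04 and 3.83 ± 0.18, far inside that range, although H2bc12, which shares its promoter region, was above background on all 6 arrays. Levels of different rows are not comparable, so this contrast concerns only their place relative to background. It also rests on the single-symbol row of H2ac12. A row naming 12 H2A genes, H2ac12 among them, was at a mean of 12.83 without induction and 12.87 with it. The part of H2ac12 in that row is not known here.

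H2B genes, the partners of H2A, had a median change of -0.08, with 3 of 8 above 0. H2bc3 (23746734 to 23747223) was at 9.98, 9.60 and 9.94 without induction and at 10.02, 10.08 and 10.41 with it. All 3 induced values lay above all uninduced ones, the only such case among the 7 genes above background throughout, and the difference was 0.33 or 1.26-fold (SE 0.16, adjusted p = 0.193; interval -0.02 to 0.68). H2bc12 (22035821 to 22036320) was at 8.95, 9.24 and 8.99 and then at 9.05, 8.35 and 9.31. Its lowest value was induced B and its highest induced C, and the difference of -0.16 (SE 0.22, adjusted p = 0.595) became 0.12 without induced B and 0.20 after cyclic loess.

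H2bc18 (chromosome 3, 96269700 to 96270192) was lowest on induced B as well and highest on induced A, at 8.13, 8.34 and 8.24 against 8.41, 7.58 and 8.24, a difference of -0.16 (SE 0.20, adjusted p = 0.566) and of 0.09 without induced B. H2bc9 was at 7.30, 7.13 and 7.22 against 7.42, 5.83 and 6.98. Induced B was 1 log2 unit or more below each other array there, and the difference was -0.47 (SE 0.32, adjusted p = 0.305). The other H2B genes, H2bc1 (the testis gene TH2B), H2bc14, H2bc21 and H2bc22, were in the range of background on all arrays, with measured differences from -0.16 to 0.24. H2bc14 is also named, with other genes, on a row above background on all 6 arrays.

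H4 genes, which with H3 form the core tetramer of the nucleosome, had a median change of 0.16 as deposited, with 4 of 7 above 0. After cyclic loess the median was 0.02, again with 4 of 7 above 0. Of these 7 genes, 5 were above background on no array. H4c12 (21750145 to 21750553) was at 12.61, 12.61 and 12.89 without induction and at 12.78, 12.85 and 12.96 with it. The groups overlapped through uninduced C alone, and the difference was 0.16 (SE 0.14, adjusted p = 0.399; interval -0.14 to 0.46). The 95% intervals given here are those of single genes. H4c9 was near background, at 7.36, 7.63 and 7.43 and then at 7.91, 7.55 and 7.82, a difference of 0.29 (SE 0.15, adjusted p = 0.208).

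H4c1 (23760795 to 23761249), whose promoter holds the E2F-type letters TTTCCCGC at 2 places, was at 6.02, 6.39 and 6.13 without induction and at 6.55, 6.51 and 7.01 with it. The groups did not overlap, but all 6 values were in the range of background, so the measured difference of 0.51 (SE 0.17, adjusted p = 0.123) is given without a fold. H4c14, on chromosome 3, was in that range as well, at 6.10, 6.52 and 6.29 against 6.34, 6.52 and 6.70, overlapping groups that differed by 0.22 (SE 0.15, adjusted p = 0.328). H4c17 was at 6.0, 6.30 and 6.40 against 6.47, 5.39 and 6.15, with induced A highest and induced B lowest. Its difference was the largest measured fall of the class, -0.23 (SE 0.24, adjusted p = 0.495), and was 0.08 without induced B. H4c2 and H4c8 were in the range of background too.

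**Figure D2:**
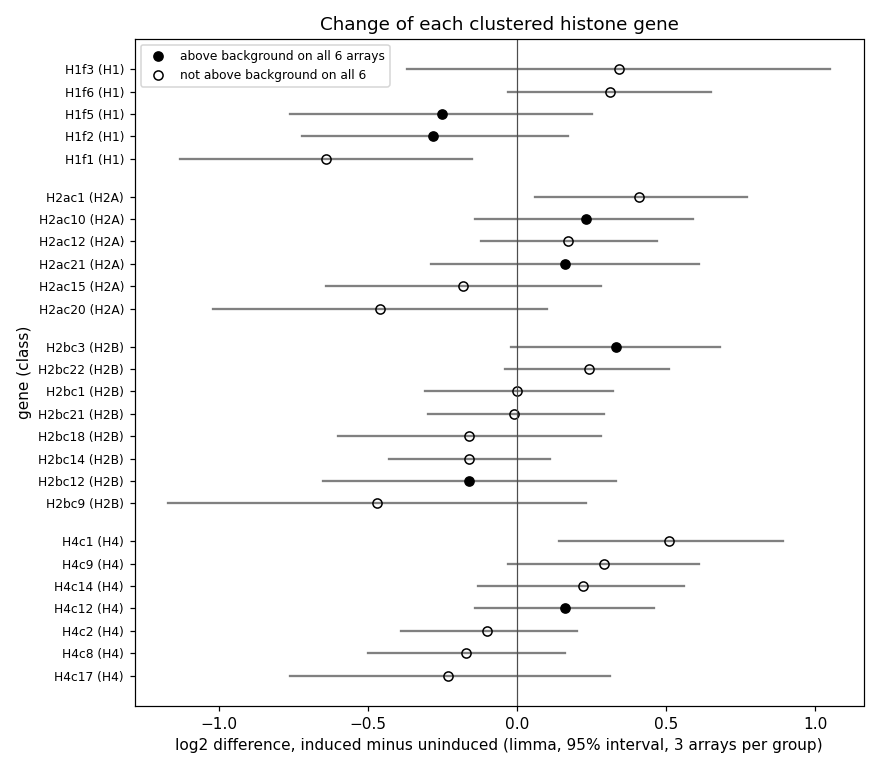
Log2 difference of each histone gene, induced minus uninduced, from limma (x axis) by gene and class (y axis). Lines are 95% intervals from 3 arrays per group, and filled points are the 7 genes above background on all 6 arrays, whose changes run from -0.28 for H1f2 to 0.33 for H2bc3.

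Most clustered histone genes are named on rows with several genes. Their coding sequences are known to be nearly alike within a class, and whether this underlies the shared rows was not tested. The annotation put 63 clustered histone genes on 1 row or more, and 37 of them, 12 H3 genes included, only on rows with several symbols. Of the 26 genes with a row of their own, 14 were also named on such rows, so how far a row measures 1 gene alone is not known here. There were 37 rows with several symbols, 3 of them with the same values as another, which leaves 34. Of these 34, 7 were above background on all 6 arrays and 18 on none.

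The brightest of these rows moved little. A row naming 4 H2B genes was at 13.25, 13.08 and 13.28 without induction and at 13.34, 13.26 and 13.47 with it, a difference of 0.16 (SE 0.12). A row naming 8 H3 genes, the only H3 row above background throughout, was at 9.38, 9.60 and 9.56 and then at 9.51, 9.40 and 9.61, a difference of -0.01 (SE 0.13). H3 and H4 are the most conserved histones, and their genes differ mainly outside the coding sequence. Over the 12 H3 rows the median change was -0.06, with a range from -0.76 to 0.36, and over the 34 rows it was -0.03.

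Among all 41345 rows of the table, 0.193% had an adjusted p under 0.05 by limma in either direction, and of the 34 rows 0 did. At an unadjusted p under 0.05 there were 3 of the 34, in either direction. Of all genes with a row of 1 symbol, 11.4% were higher and 16.9% lower at that threshold. The largest measured falls were on a row naming 3 H2B genes, from 8.77 ± 0.42 to 7.88 ± 0.45 (-0.89, SE 0.28, adjusted p = 0.217), and on a row naming 10 H2A genes, from 8.44 ± 0.30 to 7.59 ± 0.70 (-0.85, SE 0.33, adjusted p = 0.223). Rows that name the same set of genes did not give the same change. The same 10 H2A genes are named on 7 rows whose differences ran from -0.85 to 0.25, of which 1 was above background on all arrays and 5 on none. The same 8 H3 genes are named on 8 rows, from -0.76 to 0.36, with 1 above background throughout and 4 on no array. The same 3 H2B genes stood at -0.89 on one row and -0.32 on another. A change on 1 row is thus not a change of every gene it names.

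**Figure D3:**
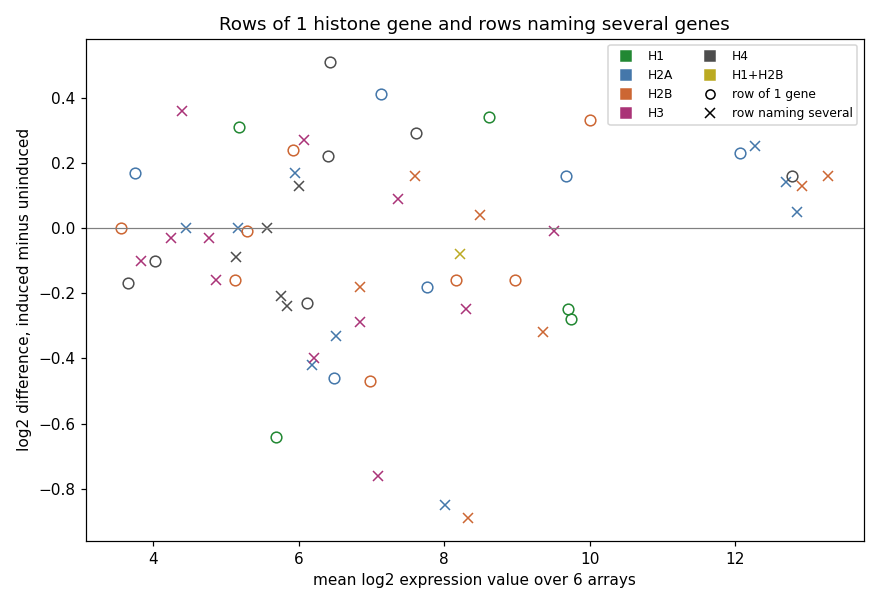
Log2 difference, induced minus uninduced (y axis), against the mean log2 value over 6 arrays (x axis), for the 26 rows of 1 histone gene (circles) and the 34 distinct rows naming several genes (crosses), coloured by class. The points beyond a mean of 12 all lie between 0.05 and 0.25, and the widest spread, from -0.89 to 0.51, lies at lower means.

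The 3 induced samples did not act alike on these genes. Induced B had the lowest of the 3 induced values in 18 of the 26 genes, or 69.2%, against 31.0% of all genes tested and 54.8% of the 3024 genes with a mean above 9. The same held in 27 of the 34 rows that name several genes (79.4%). Against the uninduced mean, the median change of the 26 genes was 0.17 on the array of induced A, -0.12 on B and 0.21 on C. For the H1 genes these were 0.27, -0.59 and -0.28, and for the H4 genes 0.08, 0.09 and 0.26. Without induced B the median over the 26 genes was 0.10, with 15 above 0. Of the 26 genes 19 had a larger SD in the induced than in the uninduced group, against 57.3% of all genes and 74.2% of those with a mean above 9. Induced C had the highest of all 6 values in 12 of the 26 genes, or 46.2%, against 21.1% of all genes and 2.71% of those with a mean above 9.

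Calls depended on which arrays carried weight. Without induced A, 24.9% of all genes were called, and 3 of the 26 histone genes: H4c1 higher at 0.58 (limma adjusted p = 0.0425), and H1f1 and H2ac20 lower at -0.93 (adjusted p = 0.00489) and -0.70 (adjusted p = 0.0484). With array weights, which rested mostly on uninduced C (weight 4.60) and induced C (3.46), 51.9% of all genes were called. Of the histone genes 7 were then higher (H2ac1, H2ac12, H2bc3, H2bc22, H4c1, H4c9 and H4c14) and 3 lower (H1f1, H1f5 and H2ac20). Of these 10, H2bc3 and H1f5 are above background on all 6 arrays, at 0.41 and -0.31 under the weights.

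Genes of the same process that are not clustered histones lay mostly below 0 as deposited. So did 90.9% of the 3024 genes with a mean above 9, whose median was -0.33. After cyclic loess 7 of 21 histone mRNA factors and 10 of 19 chaperones were above 0. So were 5 of 8 variants and 10 of 20 S phase genes. All 20 S phase genes measured, which copy DNA or supply its building blocks, were below 0 as deposited and 10 of 20 after cyclic loess, with a deposited median of -0.33 and a range from -0.57 for Cdc6, the origin licensing factor, to -0.09 for the cyclin gene Ccna2. By limma 0 passed the test, while 9 were lower at an unadjusted p under 0.05, as were 16.9% of all genes and 42.3% of those with a mean above 9. Pcna, the sliding clamp of replication, was at 11.87 ± 0.11 and 11.67 ± 0.19 (SD, n = 3 per group), a difference of -0.20 (SE 0.14, adjusted p = 0.332). By array, the S phase median stood at -0.10 (induced A), -0.49 (B) and -0.47 (C). The 3024 genes with a mean above 9 stood at -0.09, -0.47 and -0.43, so this pattern was not particular to S phase genes. The 26 histone genes, 13 of them in the range of background throughout, were at 0.17, -0.12 and 0.21. After cyclic loess the S phase median was 0.01, and that of the 26 histone genes 0.09 with 16 above 0. The difference between the lists was not tested.

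**Figure D4:**
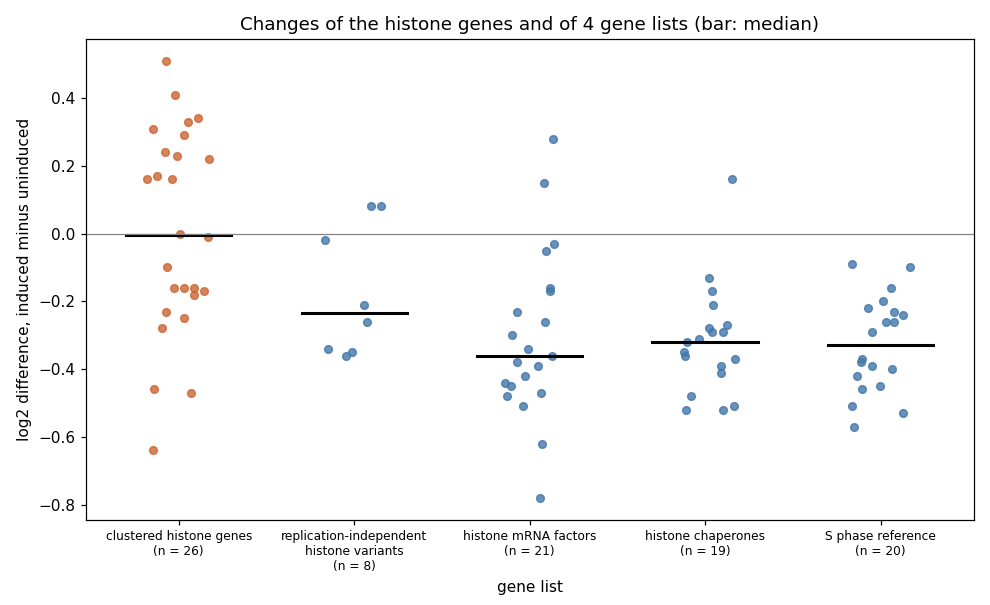
Log2 difference, induced minus uninduced (y axis), as deposited, of each gene in the 26 clustered histone genes and in 4 lists of other genes (x axis), 1 point per gene with the list's median as a bar. The histone genes spread evenly around 0 with a median of 0.00, while the medians of the other lists lie between -0.36 and -0.24. The median of all 3024 genes with a mean above 9, not drawn, is -0.33.

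Factors of histone mRNA transcription, processing and decay (the last including Eri1, Upf1 and Lsm1) had 2 of 21 measured genes above 0 as deposited and 7 of 21 after cyclic loess, with medians of -0.36 and -0.10. By limma 1 of these 21 was called lower and 0 higher, where 1.05% of all genes were called lower and 0.374% higher. At an unadjusted p under 0.05, 8 were lower, against 16.9% of all genes and 42.3% of those with a mean above 9. The gene called lower was Hinfp, which encodes the zinc finger protein that binds the H4 promoter element. It was at 8.55, 8.94 and 8.83 without induction and at 8.15, 7.83 and 7.99 with it, with no overlap and with induced B below background, a difference of -0.78 (SE 0.15, adjusted p = 0.0319). Its call ended after cyclic loess (-0.49, adjusted p = 0.0821), after median centring (-0.90, adjusted p = 0.0576), when all rows were tested together (adjusted p = 0.126), and without any 1 array other than induced A (-0.89 to -0.70, adjusted p from 0.0581 to 0.145). Npat, the coactivator of all classes, was at 9.09, 9.48 and 9.08 against 8.99, 8.45 and 8.68, a difference of -0.51 (SE 0.17, adjusted p = 0.127). Slbp was at 9.46, 9.64 and 9.40 against 9.50, 8.84 and 9.13 (-0.34, SE 0.17, adjusted p = 0.208). Sympk, a scaffold of the 3' cleavage complex, was at -0.62 (SE 0.18, adjusted p = 0.108). In all 3 of these genes induced A was the highest induced value and induced B the lowest.

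Histone chaperones and assembly factors had 1 of 19 above 0 as deposited and 10 of 19 after cyclic loess, a deposited median of -0.32 and 0 past the test in either direction by limma, with 9 lower at an unadjusted p under 0.05, against the same 16.9% and 42.3%. Asf1b, which hands new H3 and H4 to the assembly machinery, was at 11.53 ± 0.12 and 11.40 ± 0.21. Chaf1a and Chaf1b, subunits of chromatin assembly factor 1, were at -0.52 (SE 0.18, adjusted p = 0.127) and -0.36 (SE 0.16, adjusted p = 0.173). The median became 0.00 after cyclic loess.

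Of the 8 measured histone variants encoded outside the clusters, 2 were above 0 and 0 passed the test by limma. At an unadjusted p under 0.05, 1 was lower, against 16.9% of all genes and 42.3% of those with a mean above 9. The median was -0.24 as deposited and 0.02 after cyclic loess. H2ax, the variant phosphorylated at DNA breaks, was at 10.91 ± 0.24 and 10.64 ± 0.30. Macroh2a1, a variant of silent chromatin, was at 11.41 ± 0.28 and 11.20 ± 0.25, and H2az2 at 10.24 ± 0.12 and 9.91 ± 0.26. Cenpa, the H3 variant of centromeres, had a difference of -0.35 (SE 0.15, adjusted p = 0.167). The H3.3 genes had no row of 1 symbol. Without induced A, 2 of the 8 variants, 12 of the 21 mRNA factors, 8 of the 19 chaperones and 10 of the 20 S phase genes were called lower and 0 higher, where 15.9% of all genes and 46.4% of those with a mean above 9 were called lower.

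**Figure D5:**
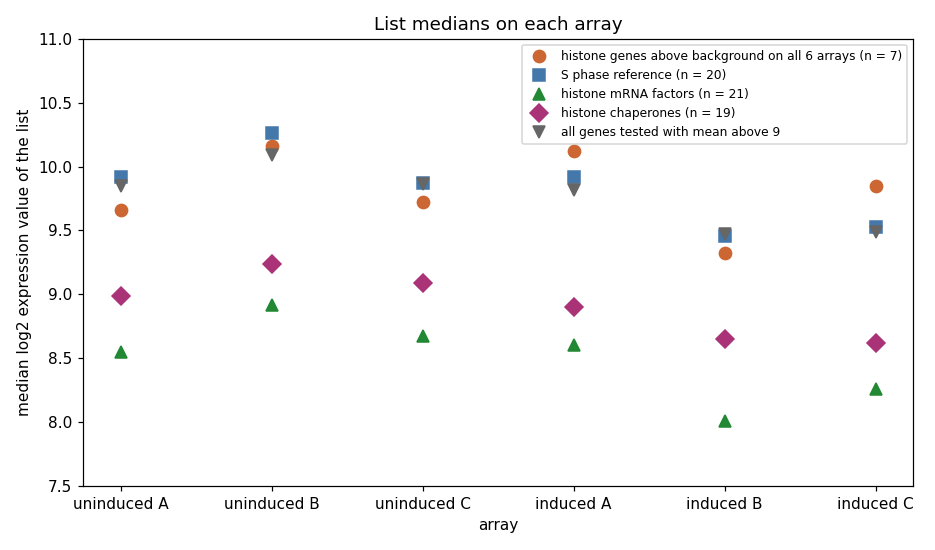
Median log2 expression value (y axis) on each of the 6 arrays (x axis) of the 7 histone genes above background throughout, of 3 other lists and of all 3024 genes with a mean above 9. On induced C the histone median is 9.85, that of the S phase genes 9.53 and that of all genes with a mean above 9 is 9.49. On induced B they are at 9.32, 9.46 and 9.47.

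Bright genes as a whole were lower in the induced samples, which bears on every comparison of levels here. The shift lay mainly on induced B and C: against the uninduced mean, their median change was -0.09 on induced A, -0.47 on B and -0.43 on C. Of the 3024 genes with a mean above 9, 9.06% were above 0 and the median was -0.33, and after cyclic loess it was 0.01. The interquartile range of the deposited gene values ran from 2.29 to 2.76 on the uninduced arrays and induced A and was 1.88 and 1.93 on induced B and C. Of the 6 histone genes with a mean above 9, 4 were above 0 (H2ac10, H2ac21, H2bc3 and H4c12), with a median of 0.16 as deposited and 0.37 after cyclic loess, where all 6 were above 0. Median centring took the median over all genes from 0.06 to -0.06 and that of the 26 histone genes to -0.12, with 12 above 0. Whether the narrower spread of induced B and C plays a part in the changes was not tested.

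The cells matched their label in part. Of 10 myeloid markers 7 were above background on all 6 arrays, among them Elane, Lyz2 and Spi1. By limma 3 of the 10 were called higher, against 0.374% of all genes: Lyz2 at 1.43 (SE 0.15, adjusted p = 0.0011), Mpo at 1.11 (SE 0.17, adjusted p = 0.0117) and Ptprc at 1.24 (SE 0.19, adjusted p = 0.0106). Their part in the histone values was not tested. Ptprc (CD45) and Csf1r were above background on no array and Mpo on the 3 induced arrays alone. Of 18 measured markers of erythroid, hepatocyte, B, T and megakaryocyte cells 0 were above background on all arrays and 16 on none. Correlations between arrays ran from 0.973 to 0.988 inside the groups and from 0.942 to 0.991 across them. In bulk RNA, the share of cells in S phase and the amount of histone mRNA per cell cannot be told apart.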

How the data were processed

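Per the submitters' processing notes, the arrays were processed with Partek against mm10. How background, normalization and probe summary were handled is not stated in the labels or notes used here. The authors deposited 1 log2 value per row and array, a scale read from the values. Rows were named through GEO's platform annotation, and positions and promoters came from RefSeq for GRCm38.p6, the same assembly as mm10. Induced and uninduced samples (3 arrays each) were compared by limma's moderated test (version 3.58.1, R 4.3.3; two-sided, no covariate), with Benjamini-Hochberg adjustment over 22180 genes at 0.05. The number of arrays limits the precision. The test was checked on simulated data whose noise was independent between genes and arrays, so shifts of whole arrays were not covered. The letters A, B and C are not stated to mark shared cultures and were not in the model. The genes and lists were chosen with earlier results of these data known. Every histone gene could be named; in each class the 4 brightest and the largest rise and fall are given in full, and of the other lists the genes that passed and at most 3 bright ones, with some of known role added after their values were seen. Alternatives were a replicate block, quantile normalization, cyclic loess, median centring, a filter at the 25th percentile of the mean, a variance trend with robust moderation, array weights, the mean of a gene's rows, other thresholds, and leaving out each array. Testing all rows together was added after seeing the data.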

Additional observations from a re-analysis of the deposited data

How the results depend on the processing

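The count of histone genes past the threshold was 0 in each direction under the replicate block, quantile normalization, cyclic loess, median centring, the dim filter, the variance trend, the mean of rows, thresholds of 0.01 and 0.1, and all rows tested together. Array weights gave 7 higher and 3 lower, and leaving out 1 array gave 0 to 1 higher and 0 to 2 lower. The replicate block took the calls among all genes from 83 higher and 232 lower to 174 and 425, and left the median of the H4 genes at 0.16 and called 0 of the 26. Deviations of same-letter samples correlated at -0.31 for A and -0.28 for B but 0.42 for C, so the letters were not taken to pair the samples. Medians of all 26 genes and of each class moved by less than the SD of their array medians under every alternative run, but for H1 that SD is the spread of H1f3 alone, and the H1 median turned from -0.25 to 0.11 after cyclic loess. No H3 median could be given, as no H3 gene had a row of its own. Of 322 values of 19 single genes under the alternatives, 10 changed sign, none past the threshold on either side. These were H1f2 (0.09), H1f5 (0.11), H2bc12 (0.20) and H2bc18 (0.10) after cyclic loess, and H2bc12 after quantile normalization (0.05) and with array weights (0.16). The rest came from leaving out arrays, with ranges of -0.03 to 0.40 for H2ac21, -0.37 to 0.12 for H2bc12, -0.33 to 0.09 for H2bc18 and -0.46 to 0.08 for H4c17. The cause was not tested. Signal over background limits the 13 genes that never rise above it, and shared rows limit which gene is measured.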
